A study of Mus musculus with 2 samples.

Results

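The microRNA (miRNA) families Mir124a, Mir9, Mir128 and Mir138, known from neurons and neural progenitors, are each encoded at more than 1 place in the mouse genome. Their 10 numbered genes were read here in adult cortex. The members are Mir124a-1, Mir124a-2, Mir124a-3, Mir9-1, Mir9-2, Mir9-3, Mir128-1, Mir128-2, Mir138-1 and Mir138-2, taken by name from the 2202 miRNA genes of GENCODE release M21 on mm10. The data are 2 microRNA-seq libraries with RNA under 30 nt, made from total RNA of left cerebral cortex; the mice were 5xFAD/CAST females, adult, 8 to 10 months of age. The libraries are labelled as biological replicates 1 and 2 of the only group, so every sample carries the 5xFAD/CAST background and no second genotype, age or treatment is described here. The 5xFAD line carries mutant human amyloid precursor protein and presenilin transgenes under the neuronal Thy1 promoter, and CAST names a wild-derived strain. The labels do not describe the cross. The tissue sample entries differ and the donor entry is shared, with no statement of separate animals. A p-value here therefore measures only how far 2 libraries differ, which may be technical.

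A miRNA gene is transcribed as part of a longer RNA, from which Drosha and then Dicer release a hairpin and a short duplex. One strand of the duplex, from the 5′ arm (5p) or the 3′ arm (3p) of the hairpin, is kept in Argonaute and pairs with messenger RNAs mainly through its seed, bases 2 to 8. When several loci encode the same mature strand, a read of that strand cannot be given to 1 locus unless it runs on into bases that differ. MiR-124 is a main miRNA of neurons and represses transcripts of non-neuronal cells. MiR-9 acts in neural progenitors, glia and young neurons, miR-128 restrains neuronal excitability, and miR-138 limits the growth of dendritic spines.

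The mature sequences of Mir9, Mir128 and Mir138 are shown first, because which of them are shared between loci sets what a count per locus can hold. The RefSeq table (GRCm38.p6) matched 7 of the 10 members, with 14 arms that make up 8 different mature miRNAs. Capitals mark the seed, 5′ to 3′. Both arms of Mir9 are the same at all 3 loci, whereas Mir128 and Mir138 each have 1 shared and 1 locus-specific arm.
miR-9-5p (Mir9-1, Mir9-2, Mir9-3): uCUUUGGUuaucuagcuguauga
miR-9-3p (Mir9-1, Mir9-2, Mir9-3): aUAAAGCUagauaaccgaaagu
miR-128-3p (Mir128-1, Mir128-2): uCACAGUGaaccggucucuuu
miR-128-1-5p (Mir128-1): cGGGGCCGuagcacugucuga
miR-128-2-5p (Mir128-2): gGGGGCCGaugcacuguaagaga
miR-138-5p (Mir138-1, Mir138-2): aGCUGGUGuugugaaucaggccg
miR-138-1-3p (Mir138-1): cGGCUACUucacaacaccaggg
miR-138-2-3p (Mir138-2): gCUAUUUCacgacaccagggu

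The locus-specific 5p arms of Mir128-1 and Mir128-2 differ in sequence but have the same seed. The locus-specific 3p arms of Mir138-1 and Mir138-2 have different seeds. None of the 1015 other miRNA genes with a mature entry in that table shared a seed of bases 2 to 8 with these 8 miRNAs.

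Followed from the mature 5′ end, the shared arms part from each other only past the end of the mature sequence. The next lines extend each shared arm along its own hairpin, up to 30 bases or the end of the annotated hairpin, and capitals mark the bases beyond the mature 3′ end. They are shown for reads that start at the mature 5′ end. Such a read has to reach the first capital that differs before it belongs to 1 locus. Reads that start at other bases are not covered by these lines.
Mir9-1, miR-9-5p: ucuuugguuaucuagcuguaugaGUGGUGU
Mir9-2, miR-9-5p: ucuuugguuaucuagcuguaugaGUGUAUU
Mir9-3, miR-9-5p: ucuuugguuaucuagcuguaugaGUGCCAC
Mir9-1, miR-9-3p: auaaagcuagauaaccgaaaguAAAAAUAA
Mir9-2, miR-9-3p: auaaagcuagauaaccgaaaguAAAAAC
Mir9-3, miR-9-3p: auaaagcuagauaaccgaaaguAGAAAUGA
Mir128-1, miR-128-3p: ucacagugaaccggucucuuuUUCAGC
Mir128-2, miR-128-3p: ucacagugaaccggucucuuuCCCUACUG
Mir138-1, miR-138-5p: agcugguguugugaaucaggccgUUGCCAA
Mir138-2, miR-138-5p: agcugguguugugaaucaggccgACGAGCA

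For each arm, the shortest read from the mature 5′ end that lies at a single place among the 2202 hairpins was found by exact match, starting at 15 bases. Only annotated hairpins were searched, so matches elsewhere in the genome are not covered, and the lengths are lower limits. For miR-128-3p the mature strand is 21 nt and a read of 22 nt that follows its hairpin is enough to tell Mir128-1 from Mir128-2. For miR-138-5p the mature strand is 23 nt and such a read of 24 nt is enough. In both cases 1 base past the mature end decides, and reads with 3′ bases that differ from the hairpin were not examined. Both families also have an arm that is unique from 15 nt, the 5p arm of Mir128 and the 3p arm of Mir138. For miR-9-5p, 23 nt long, all 3 loci need a read of 27 nt. For miR-9-3p, 22 nt long, Mir9-3 needs 24 nt, and Mir9-1 and Mir9-2 need 28 nt. Mir9-3 can therefore be told apart 2 bases past the mature end, where Mir9-1 and Mir9-2 need at least 4 bases on 1 arm and 6 on the other.

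**Figure D1:**
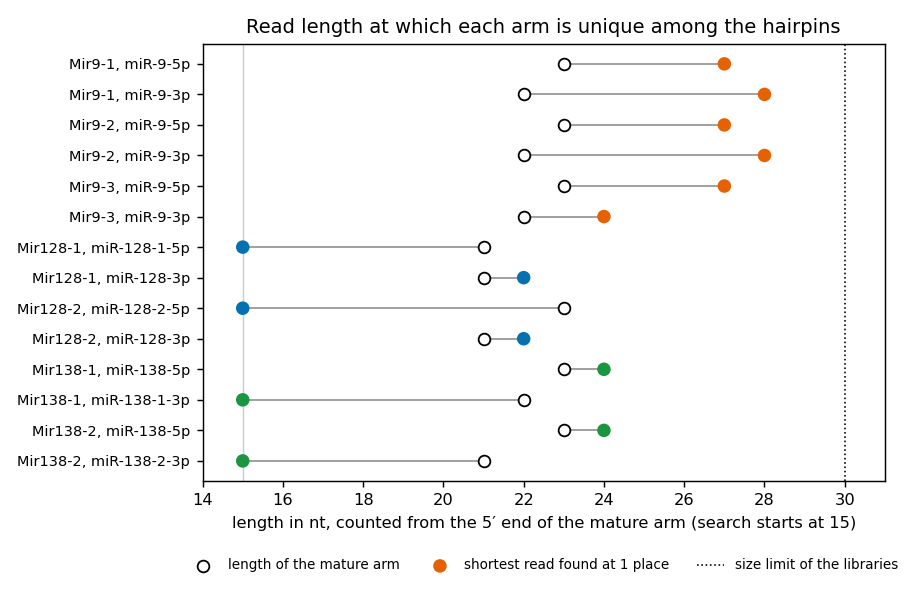
The horizontal axis gives read length in nt from the 5′ end of each mature arm, with 1 row per arm of the 7 loci; open circles are the mature lengths, filled circles the shortest read found at 1 place among the hairpins, and the dotted line the 30 nt size limit in the labels. Mir128 and Mir138 each have an arm at 15 nt, the lowest length tried, while the 6 arms of Mir9 lie between 24 and 28 nt, all past their mature ends.

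By their row names, the tables keep reads mapping to several places in a row of their own, outside the counts per gene. It held 5244644 reads in replicate 1 and 6290303 in replicate 2. These were 40.4% and 39.4% of all reads in the tables. Counts on the strand of miRNA genes came to 4226300 and 5162369, and levels are given per 1000000 of these counts (CPM). The 10 members together took 76024 counts in replicate 1 and 66194 in replicate 2; their share of the miRNA counts was 1.80% and 1.28%. The row of reads mapping to several places was 69.0 and 95.03 times as large as the members' counts. How many of its reads belong to the members was not tested, as that row is not divided by gene.

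Of the member counts, 99.4% in replicate 1 and 99.1% in replicate 2 fell on Mir128 and Mir138. In bulk tissue such a level mixes the number of expressing cells with the RNA per cell, and the 2 cannot be told apart. Of the 10 members, 6 reached 10 CPM in both libraries, the level used for detection, as did 309 of all 2202 genes. They were the 4 genes of Mir128 and Mir138 with Mir9-1 and Mir9-3.

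Mir128-1 (ENSMUSG00000065520.2) was the highest member by mean, with 38037 counts in replicate 1 and 19035 in replicate 2. It lies on chromosome 1 from 128202361 to 128202430, plus strand, in an intron of R3hdm1. Its level was 9000 CPM in replicate 1 and 3687 in replicate 2, a mean of 6344 ± 3757 (SD, n = 2), and its place among all miRNA genes moved from 21 to 47. Mir128-2 (ENSMUSG00000065441.2; chromosome 9, 112118636 to 112118711, minus strand) lies in an intron of Arpp21, which encodes a cAMP-regulated phosphoprotein of neurons. It had 8671 and 5140 counts, or 2052 and 996 CPM, with a mean of 1524 ± 747. Both Mir128 loci were lower in replicate 2, and the family sum was 11052 CPM in replicate 1 and 4683 in replicate 2.

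Mir138-1 (ENSMUSG00000065414.1; chromosome 9, 122682876 to 122682974, plus strand) lies within an exon of the transcribed pseudogene Gm47135. It had 17936 and 24884 counts, in that order of replicates, or 4244 and 4820 CPM, with a mean of 4532 ± 408 (SD, n = 2). Mir138-2 (ENSMUSG00000065512.3; chromosome 8, 94324311 to 94324381, plus strand) lies within an exon of the long non-coding RNA gene C78859. It had 10891 and 16548 counts, or 2577 and 3206 CPM, with a mean of 2891 ± 444. Both Mir138 loci were higher in replicate 2, and the family sum was 6821 CPM in replicate 1 and 8026 in replicate 2.

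The order of the 2 abundant families turned over between the libraries. The Mir128 sum was 1.62 times the Mir138 sum in replicate 1 and 0.583 times it in replicate 2. Their means, 7867 ± 4503 and 7423 ± 852 CPM (SD, n = 2 each), lay closer together than the SD of Mir128, so these data set no order between them.

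Mir9-3 (ENSMUSG00000093238.1; chromosome 7, 79505264 to 79505353, plus strand) lies in an intron of its host gene Mir9-3hg. It had 342 and 458 counts, or 80.9 and 88.7 CPM, with a mean of 84.8 ± 5.51 (SD, n = 2). Mir9-1 (ENSMUSG00000106493.1; chromosome 3, 88215598 to 88215686, plus strand) lies in an intron of the long non-coding RNA gene Gm3764 and opposite another miRNA gene, Gm25641. On its own strand it had 126 and 93 counts, or 29.8 and 18.01 CPM, and in the column that ignores strand both genes stood at 0. Mir9-2 (ENSMUSG00000065424.2; chromosome 13, 83738814 to 83738885, plus strand), inside an exon of C130071C03Rik, had 4 and 8 counts, or 0.946 and 1.55 CPM. Within Mir9 the 3 loci did not overlap in level across the libraries, with Mir9-3 above Mir9-1 and Mir9-1 above Mir9-2. The family summed to 112 CPM in replicate 1 and 108 in replicate 2, and the counts of Mir138 were 61.1 and 74.1 times as many. Mature-length reads of both miR-9 arms match all 3 loci and so go uncounted here, while each Mir138 locus has an arm unique from 15 nt. These ratios therefore compare how readily reads can be placed as well as level. They do not give the amount of miR-9 relative to miR-138 in the tissue.

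The Mir124a loci had the fewest counts. Mir124a-1 (ENSMUSG00000065597.1; chromosome 14, 64590657 to 64590741, plus strand), inside an exon of Mir124a-1hg, had 7 and 19 counts, or 1.66 and 3.68 CPM. Mir124a-2 (ENSMUSG00000093073.1; chromosome 3, 17795662 to 17795770, plus strand) overlaps an exon of Mir124-2hg by 27 of its 109 bases. It had 0 counts in replicate 1, where the limit that a count of 0 allows is 3 counts or 0.710 CPM, and 6 counts or 1.16 CPM in replicate 2. Mir124a-3 (ENSMUSG00000065454.2; chromosome 2, 180894040 to 180894107, plus strand) overlaps an exon of the long non-coding RNA gene Gm27032 by 3 of its 68 bases. It had 10 and 3 counts, or 2.37 and 0.581 CPM, and was the only member with reads on the opposite strand, 3 in replicate 1 and 0 in replicate 2. The ranges of Mir124a-1 and Mir124a-3 overlapped, so these loci have no order. The family summed to 17 and 28 counts, 4.02 and 5.42 CPM, and these counts do not show how much miR-124 the tissue holds, since reads mapping to several places are outside them.

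**Figure D2:**
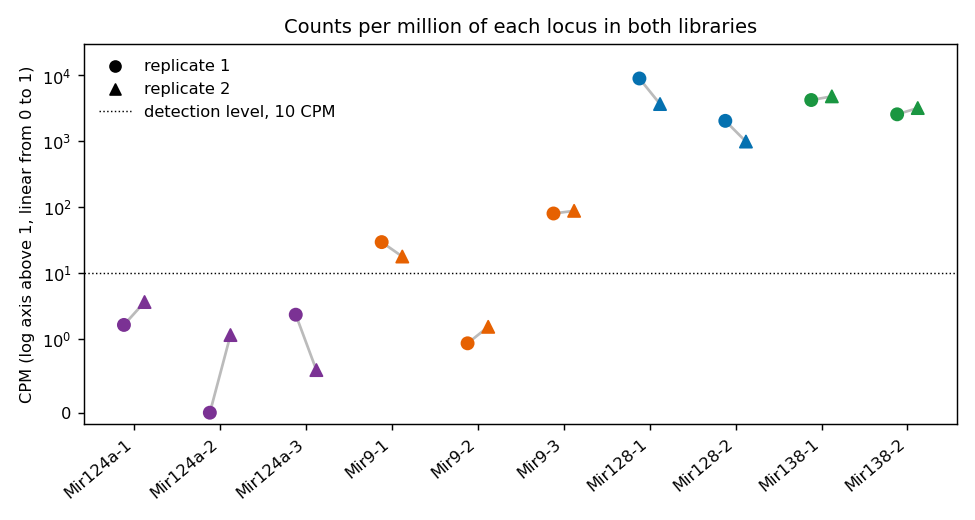
Each of the 10 loci is on the horizontal axis, and the vertical axis gives CPM, on a log scale above 1 and a linear one from 0 to 1; circles are replicate 1, triangles replicate 2 and the dotted line is 10 CPM. The Mir128 and Mir138 loci lie between 996 and 9000 CPM, Mir9-3 and Mir9-1 between 18.01 and 88.7, and Mir9-2 and the 3 Mir124a loci below 10.

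In the order of the means, Mir128-1 came first, then Mir138-1, Mir138-2, Mir128-2, Mir9-3, Mir9-1, Mir124a-1, Mir124a-3, Mir9-2 and Mir124a-2. Mir128-1 and Mir138-1 overlapped across the libraries, as did each neighbouring pair among the last 4. The other neighbours in this order did not overlap. A count of 1 was worth 0.237 CPM in replicate 1 and 0.194 in replicate 2, so the Mir124a loci and Mir9-2 rest on a handful of reads.

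The share of each annotated hairpin that also lay at other loci was lowest in Mir128 and Mir138, while the ranges of Mir9 and Mir124a overlapped. Windows of 22 bases were cut from each hairpin and looked up among all 2202. In Mir128-1, Mir128-2, Mir138-1 and Mir138-2, 4.08%, 3.64%, 3.85% and 6.0% of the windows lay at another place too. In Mir9-3 the share was 13.04%, in Mir9-1 35.3% and in Mir9-2 47.06%. In Mir124a-1, Mir124a-2 and Mir124a-3 it was 32.8%, 29.5% and 42.6%. These shares also depend on the annotated length of the hairpin. That was 90 bases for Mir9-3, 89 for Mir9-1 and 72 for Mir9-2, and 85, 109 and 68 for the Mir124a loci in the order above. The median over the 10 members was 21.3%, and over all hairpins it was 0%, with 47.5% of hairpins having at least 1 such window.

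The longest stretch that a hairpin shared with another place was 23 bases for both Mir128 loci and 24 bases for both Mir138 loci. It was 26 bases for Mir9-3, 32 for the 3 Mir124a loci and 33 for Mir9-1 and Mir9-2. The 5 members whose longest shared stretch reached the 30 nt size limit had means of 23.9 CPM or less, and the 5 members below it had means of 84.8 CPM or more. Over all hairpins, 15 of the 861 with a shared stretch of 30 bases or more reached 10 CPM in both libraries (1.74%), against 19.8% of those with 24 to 29 bases, 24.7% of those with 18 to 23 and 21.7% of the 1046 with 17 or fewer. The lower share was thus seen in the longest class, with no steady fall below it. This is a description over loci that share their libraries and, within a family, most of their sequence. It has no test, and the part of the reads mapping to several places in it was not tested.

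**Figure D3:**
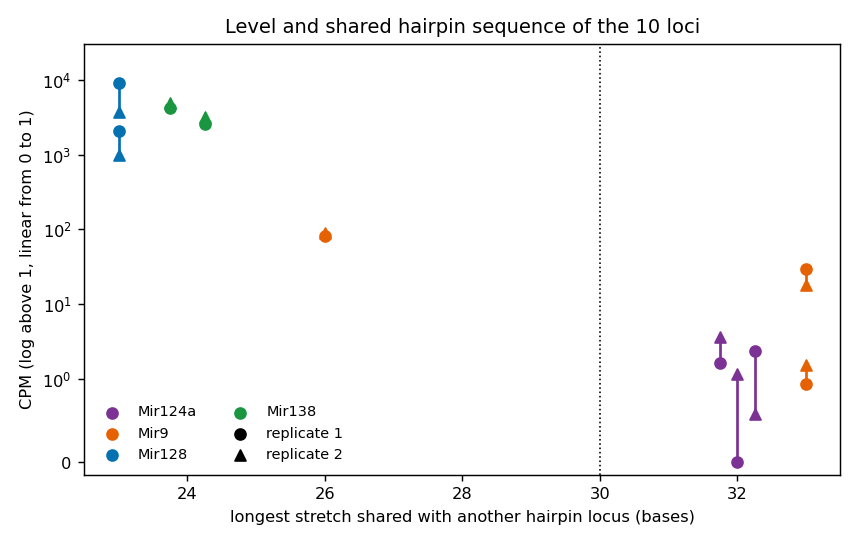
The horizontal axis gives the longest stretch of each hairpin found at another place, in bases, and the vertical axis CPM, on a log scale above 1 and a linear one from 0 to 1; circles are replicate 1, triangles replicate 2, points of 1 family that fall together are set slightly apart, and the dotted line is 30 bases. The Mir128 and Mir138 loci at 23 and 24 bases lie at 996 CPM or more, and the 5 loci at 32 and 33 bases lie below 30 CPM.

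The same classes over all miRNA genes gave the background. Of 1022 genes with a mature entry, 901 had all arms at 1 place, and 26.3% of these reached 10 CPM in both libraries. Another 63 had some but not all arms at several places, and 54.0% of them did. All arms lay at several places in 58, and 10.3% of them did. Mir128-1 and Mir138-1 were the first and second of those 63 by mean CPM, Mir138-2 was the fourth and Mir128-2 the fifth. Mir9-3 and Mir9-1 were the fifth and sixth of those 58, and Mir9-2 the eighth, in a class whose median was 0 CPM. In the 33 genes for which no read under 30 nt from a mature 5′ end lay at 1 place, none reached 10 CPM in both libraries. Reads mapping to several places stay outside the counts per gene, so this outcome was largely fixed by the counting. The same rule bears on the 58 genes with all arms at several places.

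Families differed in how far their hairpins were alike over the whole hairpin, mature arms included. By global alignment, 77.1% of the bases of the shorter Mir128 hairpin and 76.1% of the shorter Mir138 hairpin were identical in the other. For Mir9 the figures were 97.2% for Mir9-1 with Mir9-2, 88.9% for Mir9-2 with Mir9-3 and 79.8% for Mir9-1 with Mir9-3. The identical bases of these pairs were 70, 64 and 71, so the percentages also depend on the length of the shorter annotated hairpin. Pairs of unrelated hairpins were not aligned for comparison. For the 3 pairs of Mir124a they were 94.1% to 98.5%.

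The share of a family's counts that each locus held was compared between the libraries with Wilson 95% intervals, which cover counting error only. Mir128-1 held 81.4% of the Mir128 counts in replicate 1 (81.1 to 81.8) and 78.7% in replicate 2 (78.2 to 79.2), a mean of 80.1% ± 1.91 (SD, n = 2). Mir138-1 held 62.2% of the Mir138 counts (61.7 to 62.8) and 60.06% (59.6 to 60.5), a mean of 61.1% ± 1.53. For both of these loci the intervals of the libraries did not overlap. In both families the leading locus stayed ahead, and its share moved by under 3 percentage points while the Mir128 total changed 2.41-fold. Those counts hold both arms of each hairpin summed and leave out reads mapping to several places, as mature-length reads of a shared arm do. A locus share need therefore not be the share of 1 mature strand, or of all reads from that locus.

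Within Mir9, Mir9-3 held 72.5% of the counts in replicate 1 (68.3 to 76.3) and 81.9% in replicate 2 (78.5 to 84.9), and the intervals did not overlap. Mir9-1 held 26.7% (22.9 to 30.9) and 16.6% (13.8 to 19.9), and Mir9-2 held 0.847% (0.330 to 2.16) and 1.43% (0.727 to 2.80). Within Mir124a the leading locus was Mir124a-3 in replicate 1, with 58.8% (36.01 to 78.4), and Mir124a-1 in replicate 2, with 67.9% (49.3 to 82.1). These Mir124a shares come from 17 and 28 counts.

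**Figure D4:**
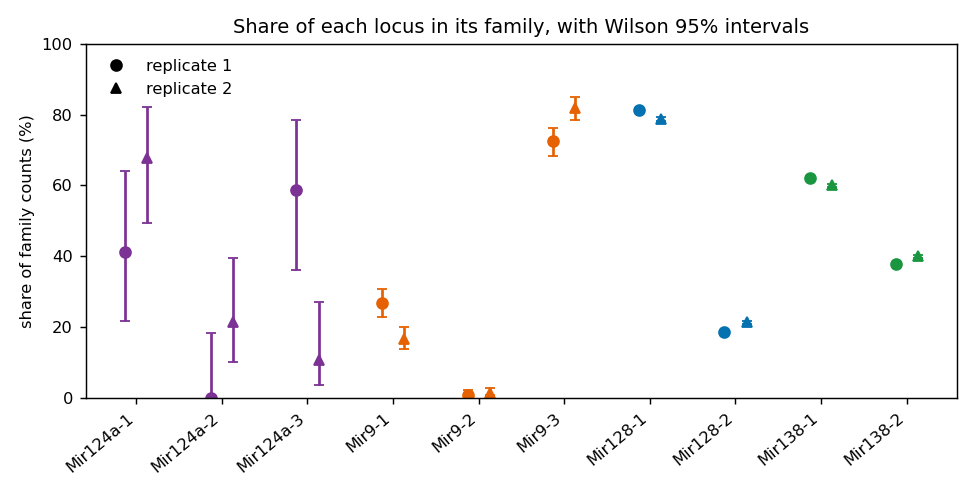
The vertical axis gives the share of its family's counts that each locus held, in percent; circles are replicate 1, triangles replicate 2 and bars are Wilson 95% intervals. Mir128-1 at 81.4% and 78.7% and Mir138-1 at 62.2% and 60.06% lead their families in both libraries, while the Mir124a intervals are the widest.

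With 1 group, the members could be compared only between replicate 2 and replicate 1, that is, between libraries and not conditions. A two-sided exact binomial test on TMM-scaled libraries was run for genes whose counts summed to 10 or more, and p-values were adjusted by Benjamini-Hochberg over the 546 genes tested, with a threshold of 0.05. It weighs a difference against counting error only, not against replicate spread. Of the 546 genes, 321 were called (58.8%): replicate 2 was the higher in 134 (24.5%) and replicate 1 in 187 (34.2%). Of the 9 members tested, 6 were called, 2 of them with more in replicate 2 and 4 with more in replicate 1, a share close to that of all genes. Mir124a-2 had too few counts to be tested.

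Both Mir128 loci were lower in replicate 2 by more than 2-fold. Mir128-1 was 2.49-fold lower (log2 ratio -1.32) and Mir128-2 2.11-fold lower (-1.07), with adjusted p-values from the exact binomial test too small to be held as a number. An edgeR exact test was also run at a biological coefficient of variation (BCV) of 0.1, which was assumed, not estimated from the libraries. By that test the adjusted p-values were 6.1e-09 and 3.9e-06, and 28.8% of the 546 genes were called. The family ratio of replicate 1 to replicate 2 was 2.41, with an exact 95% counting interval of 2.37 to 2.45. Among the 204 genes with means from 100 CPM up, whose median absolute log2 ratio was 0.37, 26 were called with a 2-fold difference or more. The difference of Mir128-1 was larger than that of 93.6% of those 204 genes and that of Mir128-2 larger than that of 88.7%.

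Both Mir138 loci were higher in replicate 2 by small folds. Mir138-1 was 1.11-fold higher (log2 ratio 0.15, adjusted p = 1.3e-26 by the exact binomial test) and Mir138-2 1.22-fold higher (0.28, adjusted p = 5.6e-57). Neither was called by the edgeR exact test at a BCV of 0.1, with adjusted p-values of 0.64 and 0.31. These differences exceed counting error and are under the median absolute log2 ratio of abundant genes.

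Among the other members, Mir9-1 was 1.69-fold lower in replicate 2 (log2 ratio -0.76, adjusted p = 3.1e-04 by the exact binomial test). It stayed called by the edgeR exact test at the assumed BCV of 0.1 (adjusted p = 0.036). Mir9-3 did not differ beyond counting error (log2 ratio 0.10, adjusted p = 0.44 by the exact binomial test), nor did Mir9-2 (0.60, adjusted p = 0.66). The ratio of the Mir9 sums, replicate 2 over replicate 1, was 0.949, with an exact 95% counting interval of 0.838 to 1.07. Mir124a-3 was 3.74-fold lower in replicate 2 on 10 and 3 counts (adjusted p = 0.042 by the exact binomial test), and this call was lost without a filter on low counts (adjusted p = 0.057) and at a BCV of 0.1 (adjusted p = 0.16). Mir124a-1 had a log2 ratio of 1.06 (adjusted p = 0.12). Mir124a-2, with 0 and 6 counts, could be tested only without the filter on low counts and was then not called (adjusted p = 0.083 by the exact binomial test).

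**Figure D5:**
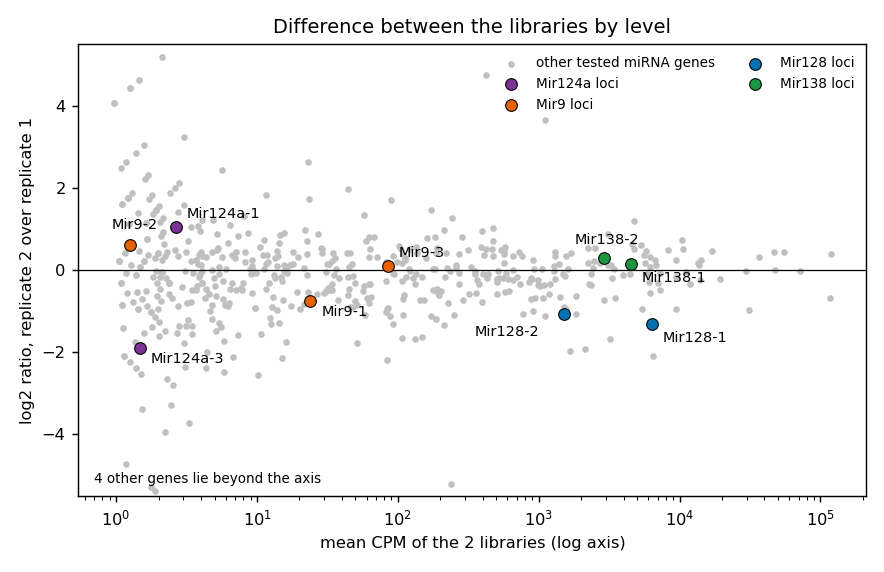
The horizontal axis gives the mean CPM of the 2 libraries on a log scale and the vertical axis the TMM-scaled log2 ratio of replicate 2 over replicate 1, with grey points for other tested miRNA genes and coloured points for the 9 tested members; 4 other genes lie beyond the axis. Mir128-1 (-1.32) and Mir128-2 (-1.07) lie toward the lower edge of the abundant genes, Mir138-1 (0.15) and Mir138-2 (0.28) near their centre.

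The loci of a family can be read against each other, since a shift in scaling moves them alike. The log2 ratios of Mir128-1 and Mir128-2 differed by 0.24 and those of Mir138-1 and Mir138-2 by 0.13. In the 15 other numbered families with 2 loci of at least 100 counts each, that difference had a median of 0.40 and ran from 0.036 to 1.58. In 10 of these 15 both loci had log2 ratios of 1 sign, in 5 both loci were also called, and in none were both at least 2-fold apart between the libraries in 1 direction, as Mir128 was. Mir26a had only 1 locus at 100 counts and lay outside this set. Its summed counts were 2019 in replicate 1 and 93 in replicate 2. Mir9-3 and Mir9-1 had ratios of opposite sign, 0.86 apart.

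Numbered families as a whole were mostly low in these tables. M21 names 53 such families, and by summed mean CPM Mir128 was the first of them and Mir138 the second. Mir9 ranked 18 and Mir124a 25, with reads mapping to several places outside all these sums. Apart from the 4 families described, Mirlet7f (3661 CPM ± 125, SD, n = 2), Mir219a (3297 ± 264) and Mirlet7c (1681 ± 87.8) were the highest, and Mir1a (0.237), Mir199a (0.118) and Mir5615 (0.118) the lowest with any count. Of the 128 loci in the other 49 families, 32 reached 10 CPM in both libraries, and 28 of those families had any count, with a median sum of 158 CPM. In the 19 with 2 loci and at least 100 counts, the leading locus held a median of 81.3% of the counts. Mir128-1 lay near that median, and Mir138-1 below it.

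Single-locus neural miRNA genes gave levels in the same libraries for comparison. The list, chosen with earlier results of these data known, held Mir132, Mir212, Mir137, Mir134, Mir127, Mir383, Mir485, Mir379, Mir433 and Mir487b. All 10 reached 10 CPM in both libraries, with means from 536 to 36360 CPM and a median of 5845. Mir128-1 and the other Mir128 and Mir138 loci lay within that range, and the Mir9 and Mir124a loci below it. Mature-length reads of an arm shared between loci do not enter these member levels. All 10 were called, 5 in each direction, and the median log2 ratio was 0.05. Mir487b, a miRNA of the imprinted Dlk1-Dio3 cluster, was 3.18-fold lower in replicate 2, and the activity-induced Mir132 1.96-fold lower, next to 2.49-fold for Mir128-1.

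Genes with the nearest mean level over the 2 libraries were named for the leading locus of each family. Mir128-1 stood between Mir22 (6502 CPM ± 5625, SD, n = 2) and Mir92b (6194 ± 1564). Mir138-1 stood between Mir320 (4620 ± 1457) and Mir100 (4481 ± 291), and Mir9-3 between Mir410 (88.07 ± 45.1) and Mir200c (84.4 ± 35.6). Mir124a-1 stood between Mir106a (2.69 ± 1.89) and Mir7062 (2.61 ± 0.686). Each of these neighbours differed from its member by less than the SD of either gene, which a choice by rank favours.

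Markers of cell types were read beside these results, with the members left out of the lists. The 4 neuronal markers, all of them in the single-locus list too, took 8.59% of the counts in replicate 1 and 7.48% in replicate 2, but did not move together. Mir132 carried the fall of this sum, with 40577 CPM in replicate 1 and 21189 in replicate 2, and the sum of the other 3 was 4.53% in replicate 1 and 5.36% in replicate 2. Of those, Mir127 had a log2 ratio of 0.32, Mir137 of -0.09 and Mir383 of -0.06. Where a sum is given without 1 gene, that gene differed most in CPM, a choice made after the values were seen.

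Among glial and immune lists, the 2 astrocyte markers took 3.36% and 2.87%, and both were called lower in replicate 2. The 4 oligodendrocyte markers took 0.710% and 0.534%, or 0.348% and 0.311% without Mir338, with Mir219b at 0 in both. Of the 3 tested, 2 were called lower in replicate 2 and 0 higher. The 5 microglial and immune markers took 0.495% and 0.226%, or 0.160% and 0.136% without Mir21a, and 3 of them were called lower and 1 higher. The 3 endothelial and mural markers took 1.33% and 1.93%, or 0.551% and 0.620% without Mir126a, and 2 were called higher in replicate 2 and 1 lower. The 3 markers of choroid plexus and ependyma took 0.0532% and 0.0745%, or 0.00570% and 0.00783% without Mir204. Of these, 2 were called higher in replicate 2 and 0 lower. The 3 markers of blood took 0.00724% and 0.0887%, or 0.00424% and 0.00657% without Mir451a. Of the blood markers, 2 were called higher in replicate 2 and 1 lower. The 4 of pluripotent cells took 0.0423% and 1.9e-05%, and all 4 were called lower in replicate 2. Lists moved in both directions, as Mir128 and Mir138 did, and their part in the differences of the members was not tested.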

How the data were processed

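MicroRNA-seq counts were read for 2 libraries of 1 group. The authors deposited raw read counts per miRNA gene of GENCODE M21 on mm10, 1 table per library, by the record that goes with each file. The name of the aligner and counter is not given in the sources used here. Column totals and genes lying opposite each other showed which of the 3 columns ignores strand, which follows the gene and which is its reverse. Rows that name no gene (67.4% and 67.6% of reads) stayed out of library sizes and tests. The column that follows the gene was used.

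CPM, TMM scaling (edgeR 4.0.16; DESeq2 1.42.0 for the alternative), two-sided exact binomial tests with Benjamini-Hochberg adjustment over genes whose counts summed to 10 or more (SciPy 1.17.1), ratios with 0.5 counts added, and Wilson intervals (counting error only, as reads carry no molecular identifiers) were computed. edgeR's quasi-likelihood test has no groups to compare here. The binomial and sequence scripts were tested on simulated data. Hairpin sequences came from M21 transcripts and mature arms from RefSeq. The whole genome was not searched, and strain variants in CAST were not analysed here. The alignment scored 1 per match, with gap penalties of 1 and 0.5.

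The members, lists and tests were chosen with earlier results of these data known. Named genes were the members, the genes next in mean CPM to each family's leading locus, the single-locus list, the 3 highest and 3 lowest other numbered families, and genes sharing a seed with, or lying opposite, a member.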

Additional observations from a re-analysis of the deposited data

Results flagged for a closer look

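Values outside the main measurement lay above the limit of 3 counts. The row of reads mapping to several places held 5244644 in replicate 1, 6290303 in replicate 2, and totals of this size pass that limit in any case. Gm25641, the miRNA gene opposite Mir9-1, had 126 opposite-strand counts in replicate 1 and 93 in replicate 2, the same numbers that Mir9-1 has on its own strand, and 0 counts on its own strand in both.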

How the results depend on the processing

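Levels depended on the denominator. With reads mapping to several places added to it, the mean was 2.12 for Mir124a, 49.3 for Mir9 and 3331 for Mir138, and with all reads of the table it was 1.53, 35.7 and 2409, and 2557 for Mir128, as larger denominators must give. In the unstranded column, where Mir9-1 had 0 counts opposite Gm25641, Mir9 fell to 92.4 CPM and Mir9-3 held 98.6% of it. The edgeR exact test at a BCV of 0.1 called 3 of 9 members tested and 157 genes (28.8%). With no filter on low counts, 5 of 10 members were called, beside 41.8% of all genes tested. From 100 counts up it was 5 of 6 beside 79.1%, in the unstranded column 5 of 8 beside 56.0%, with DESeq2 size factors 6 of 9 beside 57.3% and with total counts 6 of 9 beside 58.1%. No log2 ratio changed sign under these settings. The median share of windows lying at another place was 30.1% at 18 bases and 11.5% at 26. Allowing 1 mismatch raised the shortest unique read by 1 base for 8 of the shared arms, to 29 nt for Mir9-3 on miR-9-3p, and gave none within the hairpin for Mir9-2 on that arm. Leaving out a library moves a mean of 2 by less than its SD by construction and leaves no test. Searching the whole genome was not run.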
